A study of Macaca mulatta with 4 samples.

Results

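The NMDA receptor is a glutamate-gated cation channel of excitatory synapses, and the genes described here are its subunit genes GRIN1, GRIN2A, GRIN2B, GRIN2C, GRIN2D and GRIN3A together with SRR, which encodes serine racemase. They were taken by symbol from a table of read counts of 33618 genes, in which all 7 symbols were present, and all 7 were among the 17693 genes abundant enough to test. The counts came from prefrontal cortex of wild-type infant rhesus macaques (Macaca mulatta), with 2 libraries labelled as having received no agent (control replicates 2 and 3) and 2 labelled sevoflurane (replicates 2 and 3). Per the labels' protocols, the sevoflurane animals inhaled the anaesthetic at about 2.5 to 3% for 4 hours, first at about postnatal day 7 and again 14 and 28 days later, and tissue was taken right after the last exposure. How control animals were handled is not stated in the labels. The labels also leave unsaid whether replicates of a group were separate animals. Every p-value is therefore set against a spread between libraries that may be technical. The comparison asks whether the transcripts of a receptor that volatile anaesthetics inhibit differed after repeated exposure in infancy. Effects of the repeated exposures and of the last exposure alone cannot be told apart in this design.

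Every NMDA receptor contains the obligatory GluN1 subunit, encoded by GRIN1, which binds glycine or D-serine, combined with GluN2 subunits, which bind glutamate, or with GluN3 subunits. In cortex GRIN2B and GRIN2D are the early GluN2 genes, and GRIN2A rises after birth, so the proportion of GRIN2B to GRIN2A is used as a measure of synaptic maturation. SRR makes D-serine, the co-agonist, from L-serine, which is supplied largely by the astrocyte enzyme PHGDH.

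Total counts were between 7793757 in control replicate 3 and 11706115 in sevoflurane replicate 3. The 8 excitatory neuron markers, with none at 0, summed to between 3492 and 4486 CPM (read counts scaled for sequencing depth with TMM factors, the trimmed mean of M values). Of 5 cerebellum markers, the granule-cell gene GABRA6 had 0 to 2 counts and PCP2 had 2 to 4. Counts were 6 to 26 for CBLN3, 94 to 103 for FAT2 and 84 to 295 for ZIC1. The 5 summed to between 18.1 and 35.9 CPM. The excitatory markers and GABRA6 did not conflict with the tissue label, but the cerebellum markers were not all absent. Marker sums of mature oligodendrocytes, their precursors and microglia lay apart between the groups, and those of meningeal and perivascular fibroblasts overlapped. The summed level of 10 mature oligodendrocyte markers was 9288 and 14695 CPM in the controls against 2419 and 3612 CPM after sevoflurane, with 10 of 10 called lower. The summed level of 8 meningeal and perivascular fibroblast markers was 216 and 103 CPM in controls and 531 and 195 CPM after sevoflurane. These sums overlapped, with 1 of 8 markers called higher and all 8 log2 fold changes positive. The 8 oligodendrocyte precursor markers summed to 976 and 940 CPM in controls and 523 and 594 CPM after sevoflurane, with 2 of 8 called lower. The 8 microglia markers summed to 355 and 316 CPM in controls and 234 and 285 CPM after sevoflurane, with 1 of 8 called lower, CX3CR1 (-1.03), and positive values that did not pass for C1QA (0.66) and C1QB (0.67). None of these markers was at 0 counts in any library. Over all tested genes 0.537% were called lower and 0.0622% higher. For 10 general neuron markers the sums were 7135 and 8455 CPM in controls and 8602 and 8643 CPM after sevoflurane. Both sevoflurane sums were above both controls, with 9 positive and 1 negative log2 fold changes and 0 of 10 called. The sums of the 8 excitatory neuron markers overlapped between the groups. The part of neuron content in the values of the subunit genes, GRIN2A and GRIN2B among them, was not tested.

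None of the 7 genes was called higher or lower after sevoflurane by edgeR's quasi-likelihood test (threshold 0.05 on p adjusted over the whole table by Benjamini and Hochberg). By the same rule 0.599% of all tested genes were called. At an unadjusted p under 0.05 there was 1 member, GRIN2C, where 9.92% of all tested genes reached that level, and DESeq2 and limma-voom called 0 of the 7. The median log2 fold change of the 7 genes was 0.05, with 4 positive and 3 negative values, against -0.00 over all tested genes. The groups did not overlap for 3 of the 7 genes, an arrangement found in 41.1% of all tested genes. They were GRIN2A and GRIN2B, higher after sevoflurane as in 20.7% of tested genes, and GRIN2C, lower as in 20.4%. For each of the 7 genes the 95% interval lay within a 2-fold change in either direction. These intervals rest on a spread that edgeR estimates from 2 libraries per group with information shared among genes. That spread may be technical, so the intervals do not exclude larger differences between animals.

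**Figure D1:**
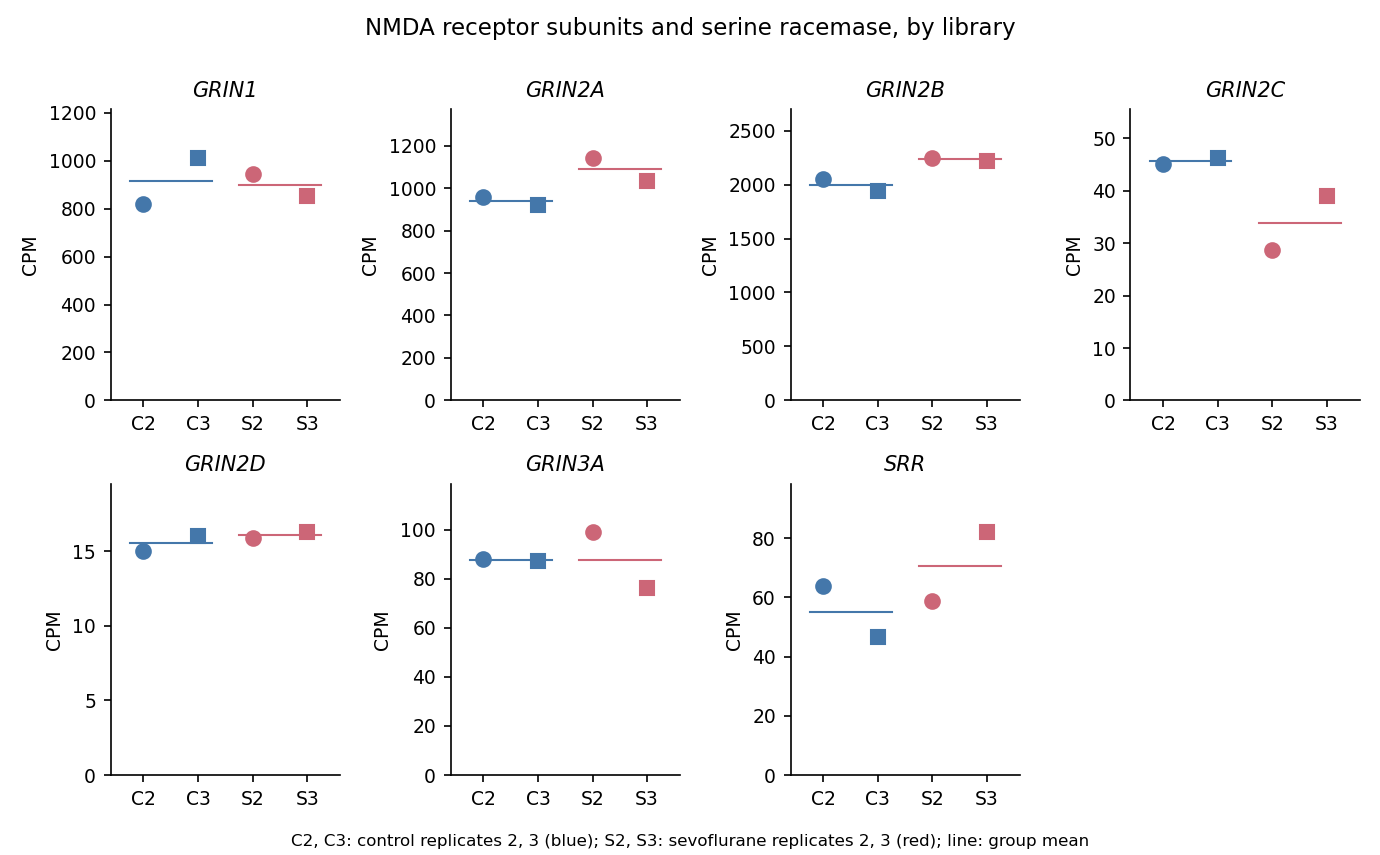
Level of each gene in CPM (vertical axes, starting at 0) in control replicates 2 and 3 (blue) and sevoflurane replicates 2 and 3 (red), with a line at each group mean. The groups are separate for GRIN2A, GRIN2B and GRIN2C and overlap for GRIN1, GRIN2D, GRIN3A and SRR; levels of different genes are not comparable because transcript lengths differ.

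In the order of replicates 2 and 3, which is kept below, GRIN1, the obligatory subunit, had 822 and 1013 CPM in the controls and 947 and 853 CPM after sevoflurane. Both sevoflurane libraries fell between the controls, so the groups overlapped entirely. The log2 fold change was -0.03 (SE 0.13, 95% interval -0.32 to 0.27, adjusted p = 0.969). The sign was not stable: without control replicate 3, which had the highest value, the log2 fold change was 0.13, and without sevoflurane replicate 3 it was 0.05.

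GRIN2A, the subunit gene that rises as cortex matures, had 957 and 923 CPM in the controls and 1144 and 1035 CPM after sevoflurane. Both sevoflurane libraries were above both controls. The group means were 940 ± 23.9 and 1089 ± 76.7 CPM (SD, 2 libraries each). On the log2 scale the fold change was 0.21 (SE 0.11, 95% interval -0.03 to 0.46, adjusted p = 0.59). GRIN2A did not pass the test, and the interval allows a fold between 0.976 and 1.38.

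GRIN2B, the GluN2 gene that predominates early in forebrain, had 2052 and 1943 CPM in the controls and 2250 and 2222 CPM after sevoflurane. Again both sevoflurane libraries were above both controls. The log2 fold change was 0.16 (SE 0.10, 95% interval -0.07 to 0.39, adjusted p = 0.673), which is a fold of 1.12 with an interval of 0.956 to 1.31. These are among the most deeply counted genes of the table, with 14673 to 26388 reads for GRIN2B and 6970 to 13414 for GRIN2A. Read count therefore does not limit their precision, which rests on the spread that edgeR estimates with information shared among genes.

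GRIN2C, known from cerebellar granule cells and, in forebrain, from astrocytes, had 45.1 and 46.3 CPM in the controls and 28.7 and 39.0 CPM after sevoflurane. Both controls were above both sevoflurane libraries, and sevoflurane replicate 2 was the lowest. The log2 fold change was -0.43 (SE 0.19, 95% interval -0.85 to -0.01, unadjusted p = 0.0467 and adjusted p = 0.493 by edgeR's quasi-likelihood test), so GRIN2C did not pass. Leaving out sevoflurane replicate 2 gave -0.23, and leaving out sevoflurane replicate 3 gave -0.67. In bulk tissue fewer cells of a type and less RNA per cell cannot be told apart. The 10 astrocyte markers summed to 10907 and 9327 CPM in the controls and 7448 and 7319 CPM after sevoflurane, with 1 of 10 called lower, GFAP, 0 higher and none at 0 counts. Without GFAP the other 9 summed to 5668 and 5456 CPM in controls and 5921 and 5425 CPM after sevoflurane, so that sum overlapped between the groups. Its largest terms are SLC1A2, SLC1A3 and GLUL, and single markers lay apart in both directions without passing the test: AQP4 (-0.49, SE 0.18), GJA1 (-0.40, SE 0.18) and SOX9 (-0.40, SE 0.19) were lower in both sevoflurane libraries than in both controls, and GLUL (0.24, SE 0.11) and ALDH1L1 (0.21, SE 0.17) were higher. With GFAP, 6 of the 10 markers did not overlap between the groups, against 41.1% of all tested genes. The part of astrocyte content in the GRIN2C values was not tested.

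GRIN2D, a GluN2 gene of early development and of interneurons, was counted at 121 to 192 reads per library. Its levels were 14.9985 and 16.0 CPM in controls and 15.9 and 16.3 CPM after sevoflurane, which overlap. The log2 fold change was 0.05 (SE 0.21, 95% interval -0.42 to 0.53, adjusted p = 0.964). GRIN3A encodes a GluN3 subunit that lowers calcium permeability and is highest in early postnatal life. It had 88.0 and 87.4 CPM in controls and 99.0 and 76.2 CPM after sevoflurane, so the sevoflurane libraries stood on either side of nearly equal controls. The log2 fold change of GRIN3A was -0.00 (SE 0.16, 95% interval -0.36 to 0.35, adjusted p = 0.999). No direction can be given for GRIN3A, since it was 0.01 with library size alone and 0.18 without sevoflurane replicate 3.

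SRR had 63.7 and 46.6 CPM in the controls and 58.9 and 82.0 CPM after sevoflurane. Sevoflurane replicate 3 was the highest and control replicate 3 the lowest, and sevoflurane replicate 2 lay between the controls. The log2 fold change was 0.35 (SE 0.21, 95% interval -0.12 to 0.82, adjusted p = 0.657), and it ran from 0.09 without sevoflurane replicate 3 to 0.60 without control replicate 2. The group means were 55.2 ± 12.1 CPM in controls and 70.4 ± 16.3 CPM after sevoflurane (SD, 2 libraries each), and the groups overlapped. In the RefSeq gene table SRR overlaps the gene TSR1, GRIN3A overlaps PPP3R2, and GRIN2A overlaps 4 genes without a protein product (lncRNAs and a pseudogene), and no source used here gives the strand setting of the counting, so reads of these genes, and the ratios that use them, may include reads of the overlapping ones.

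**Figure D2:**
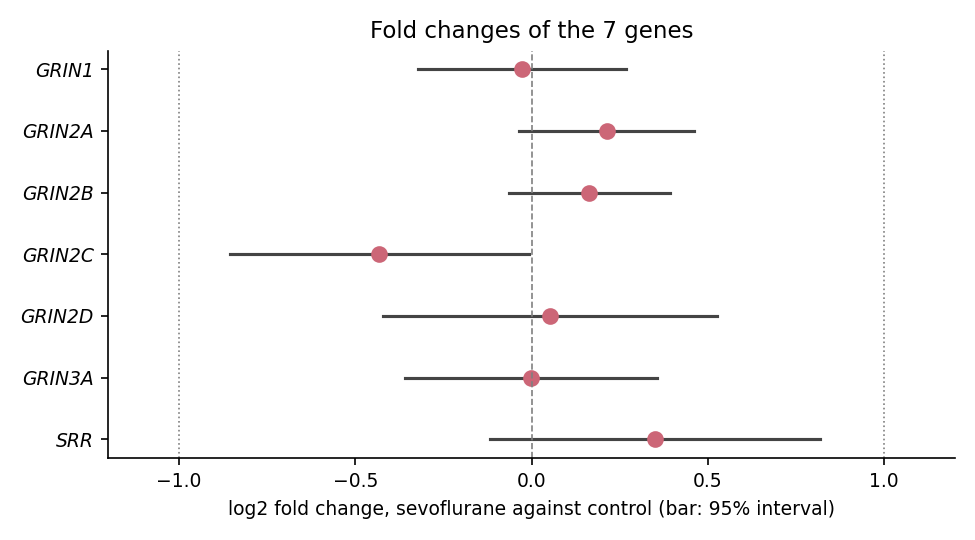
Log2 fold change of sevoflurane against control for each of the 7 genes (points) with its 95% interval from edgeR (bars); dotted lines mark a 2-fold change in either direction. Each interval lies within the dotted lines, and that of GRIN2C ends at -0.01, just below 0.

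The proportion of GRIN2B to GRIN2A was compared as a ratio of read counts within each library, which does not depend on how libraries are scaled. It was 2.14 (exact Clopper-Pearson 95% interval from counting error only, 2.09 to 2.20) in control replicate 2 and 2.11 (2.05 to 2.17) in control replicate 3. After sevoflurane it was 1.97 (1.93 to 2.01) in replicate 2 and 2.15 (2.10 to 2.19) in replicate 3. Sevoflurane replicate 2 was the lowest of the libraries and sevoflurane replicate 3 the highest, so the groups overlapped. The mean log2 ratio differed by -0.05 between the groups (SD 0.02 in controls and 0.09 after sevoflurane, n = 2 each, exact permutation p = 1, two-sided). With 2 libraries against 2 the smallest p this test can give is 0.333. Leaving out sevoflurane replicate 2 gave 0.01 and leaving out sevoflurane replicate 3 gave -0.11, so its sign rested on 1 library. No shift in the proportion beyond the spread between libraries was detectable.

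Ratios to GRIN1 were taken for the 5 other subunits as a measure of composition that is again free of library scaling. Including the GRIN2B to GRIN2A ratio, 6 ratios were compared, and the Benjamini-Hochberg adjusted exact permutation p was 1 for each (n = 2 per group). GRIN2A to GRIN1 was 1.16 and 0.911 in the controls and 1.21 and 1.21 after sevoflurane. It was the one ratio whose groups did not overlap, with a log2 difference of 0.23 and an exact permutation p = 0.333 before adjustment. Without control replicate 3 that difference was 0.06. GRIN2B to GRIN1 was 2.50 and 1.92 in controls and 2.38 and 2.60 after sevoflurane, a log2 difference of 0.19 that became -0.01 without control replicate 3. In both cases the low value was that of control replicate 3, the library where GRIN1 was highest.

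GRIN2C to GRIN1 was 0.0549 and 0.0457 in controls and 0.0303 and 0.0457 after sevoflurane, so only sevoflurane replicate 2 was outside the control values. GRIN2D to GRIN1 stayed between 0.0158 and 0.0191, with counting intervals that overlapped among the 4 libraries. GRIN3A to GRIN1 was 0.107 and 0.0862 in controls and 0.105 and 0.0893 after sevoflurane, a log2 difference of 0.01.

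**Figure D3:**
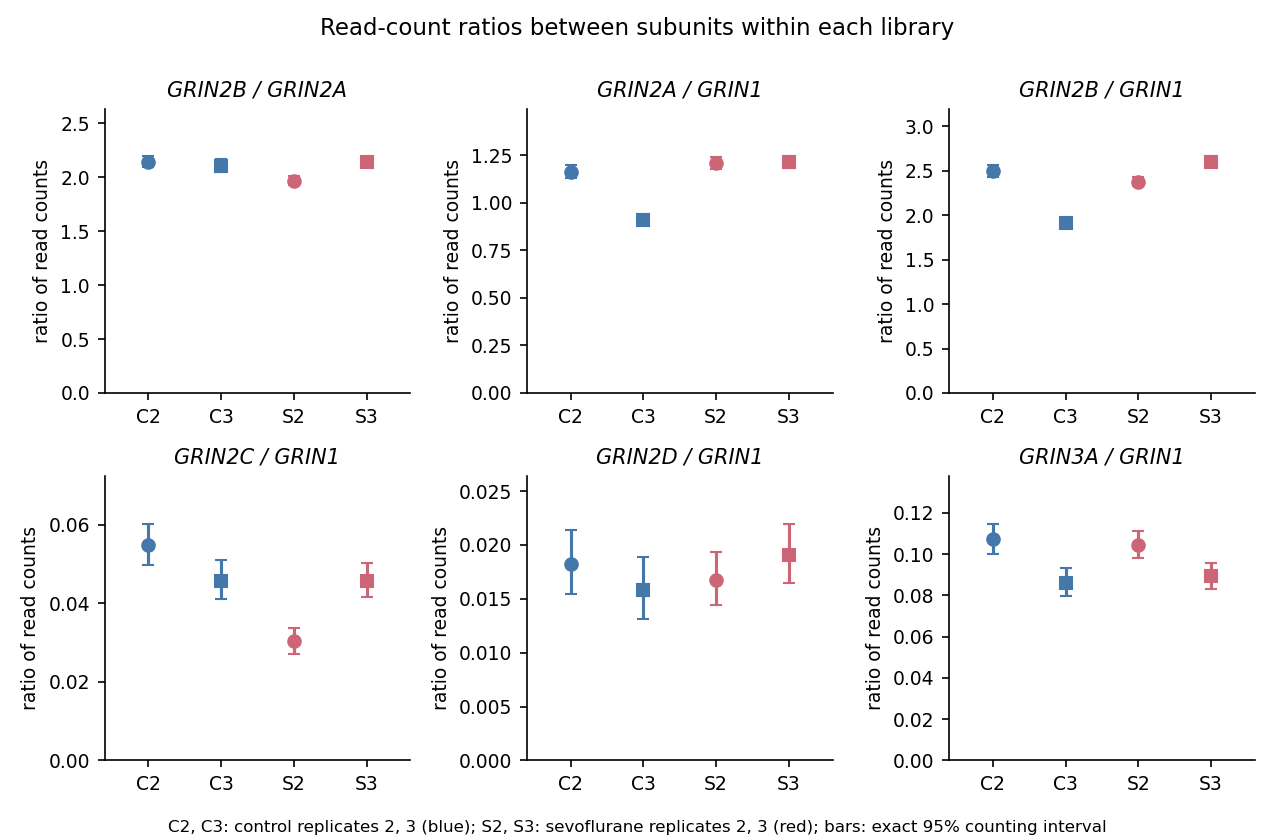
Ratio of read counts of 2 subunit genes within each library (vertical axes, starting at 0), for control replicates 2 and 3 (blue) and sevoflurane replicates 2 and 3 (red), with exact 95% counting intervals. GRIN2B to GRIN2A lies between 1.97 and 2.15 in all 4 libraries, and the ratios of GRIN2A and GRIN2B to GRIN1 are lowest in control replicate 3.

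As shares of the reads of the 6 subunit genes, GRIN2B took 51.6% and 48.2% in the controls and 50.2% and 52.4% after sevoflurane. GRIN1 took 20.7% and 25.2% in controls and 21.1% and 20.1% after sevoflurane, and GRIN2A took 24.0% and 22.9%, then 25.5% and 24.4%. The GRIN1 share of control replicate 3 (exact 95% counting interval 24.7 to 25.6%) was apart from those of the other libraries. These shares depend on transcript length, so they describe the libraries and do not rank the subunits by molecule number.

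Over the 4 libraries, the genes with the profile nearest to GRIN2A were TPM1, DLG2 and PLEKHA2, with root-mean-square distances of 0.0060, 0.012 and 0.012 between log2 deviations from the 4-library mean, among 10861 genes of at least 10 CPM. DLG2 encodes PSD-93, a postsynaptic scaffold protein, and had a log2 fold change of 0.24 (adjusted p = 0.608). Nearest to GRIN2B were TBC1D9, CERK and TMED7, at distances of 0.0013, 0.0020 and 0.0065. GRIN2A and GRIN2B were 0.051 apart, against a median distance of 0.17 from GRIN2B to all genes compared. By nearness, GRIN2A ranked 435 from GRIN2B and GRIN2B ranked 201 from GRIN2A, so many other genes were nearer. With 4 libraries many genes share a profile, so these distances are a description.

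Of the other receptor genes, GRIN3B had 6 and 4 counts in controls and 6 and 11 after sevoflurane, too few to test. GRINA, named for a glutamate-receptor-associated protein that is not a channel subunit, had 51.8 ± 0.850 CPM in controls and 49.7 ± 2.64 CPM after sevoflurane (SD, 2 libraries each) and was not called.

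Around SRR, 18 genes that make, break down or carry serine, D-serine and glycine were listed, of which 16 were tested. In this list 1 gene was higher, SDS, 0 were lower and 15 were not called, with a median log2 fold change of -0.08, where 0.0622% of all tested genes were called higher and 0.537% lower. SDS encodes serine dehydratase, which converts L-serine, the substrate of serine racemase, to pyruvate. It had 7.69 and 8.21 CPM in controls and 21.6 and 22.4 CPM after sevoflurane, from 62 to 264 reads per library. The groups were far apart against their own spread, and SDS rose by 1.47 on the log2 scale (SE 0.22, 95% interval 0.97 to 1.97, adjusted p = 0.0251). SDS was also called under each of the 12 alternative settings, with log2 fold changes of 1.42 to 1.51.

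SLC6A9 encodes the glycine transporter GlyT1, which keeps glycine low near NMDA receptors. It had 39.3 and 50.4 CPM in controls and 21.9 and 26.1 CPM after sevoflurane, with the groups apart. Its log2 fold change was -0.90 (SE 0.19, 95% interval -1.34 to -0.46, adjusted p = 0.0988), so it did not pass, whereas DESeq2 gave an adjusted p of 0.0153 (range over all alternatives 0.00203 to 0.362). PHGDH, the first enzyme of L-serine synthesis, had 56.6 and 58.7 CPM in controls and 40.2 and 42.8 CPM after sevoflurane (log2 fold change -0.47, SE 0.15, adjusted p = 0.301). SLC1A5, a neutral amino acid transporter chosen here after its values were seen, had 16 reads in each control and 5 and 7 reads after sevoflurane (-1.82, SE 0.69, adjusted p = 0.404). These 4 genes were the ones in the list with an unadjusted p under 0.05 by edgeR, a level that 9.92% of all tested genes reached.

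SLC1A4, a transporter of serine and alanine also chosen after its values were seen, went the other way, with 163 and 158 CPM in controls and 187 and 188 CPM after sevoflurane (0.22, SE 0.12, adjusted p = 0.608). The sevoflurane values were nearly equal and above both controls, but the difference did not pass. PSAT1, the second enzyme of serine synthesis, overlapped between the groups, and PSPH, the third, listed in the table under its RefSeq gene number, had 5.79 ± 0.613 CPM in controls and 7.09 ± 1.23 CPM after sevoflurane (SD, 2 libraries each). DAO, which degrades D-serine, had 2 reads in control replicate 2 and 0 in each other library, which allows a level of up to 0.254 to 0.397 CPM there (3 counts of each library). The glycine transporter SLC6A5 of brainstem and spinal cord had 0 reads in all 4 libraries, with limits of the same size. The oligodendrocyte marker sums and GFAP were lower in both sevoflurane libraries, as SLC6A9 and PHGDH were, while the sum of the 9 astrocyte markers other than GFAP overlapped between groups. The part of glial content in these values was not tested.

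**Figure D4:**
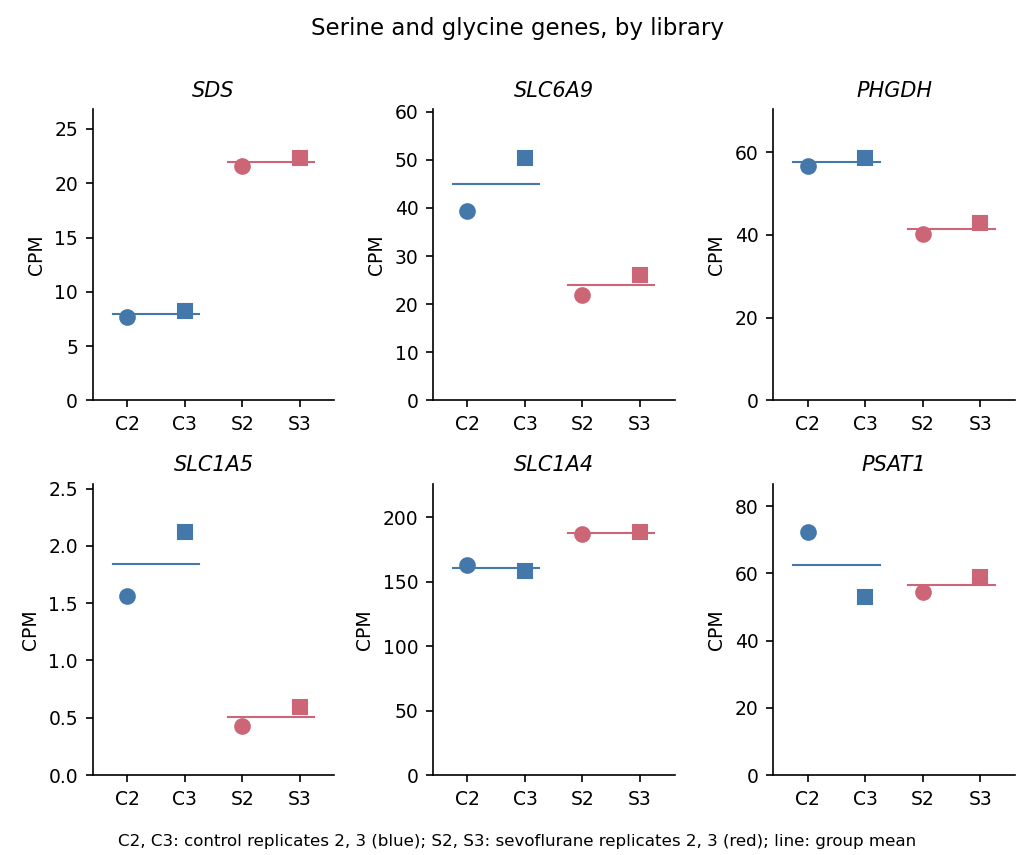
Level in CPM (vertical axes, starting at 0) of 6 serine and glycine genes in control replicates 2 and 3 (blue) and sevoflurane replicates 2 and 3 (red), with a line at each group mean. SDS is higher after sevoflurane; SLC6A9, PHGDH and SLC1A5 lie lower and SLC1A4 higher without passing the test, and PSAT1 overlaps.

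NMDA receptors are held at the postsynaptic density by scaffold proteins and signal through calcium. Of 21 scaffold and anchoring genes 0 were called by edgeR, DESeq2 or limma-voom, with 13 positive and 8 negative log2 fold changes and a median of 0.06. At an unadjusted p under 0.05 by edgeR there were 3, against 9.92% of all tested genes, of which edgeR called 0.599%. EPHB2, a receptor tyrosine kinase that binds the NMDA receptor, had 66.1 and 64.6 CPM in controls and 78.9 and 97.1 CPM after sevoflurane (0.43, SE 0.15, adjusted p = 0.368). SHANK2 had -0.42 (SE 0.17, adjusted p = 0.441) and HOMER2 0.32 (SE 0.14, adjusted p = 0.49), both encoding scaffold proteins of the density. DLG4, which encodes PSD-95, the main scaffold of GluN2 subunits, was chosen after its values were seen. It had 747 and 910 CPM in controls and 887 and 859 CPM after sevoflurane, which overlap, and a log2 fold change of 0.08 (SE 0.12) that was -0.06 without control replicate 2. SHANK1 and RELN, also chosen after their values were seen, had -0.15 and 0.09 with all libraries. Without control replicate 2, which leaves control replicate 3 alone in its group, they had -0.41 and 0.95. Without control replicate 3 both had the opposite sign (0.17 and -0.45).

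Over all tested genes edgeR called 0.599% and gave 9.92% an unadjusted p under 0.05. Of 18 genes that traffic or phosphorylate the receptor 0 were called by edgeR, DESeq2 or limma-voom, with a median of 0.08. By edgeR 1 had an unadjusted p under 0.05. That gene was FYN, a kinase that phosphorylates GluN2 subunits, with 207 and 199 CPM in controls and 158 and 175 CPM after sevoflurane (-0.29, SE 0.12, adjusted p = 0.481). LIN7C, an adaptor in the transport of GluN2B, had 0.35 (SE 0.18, adjusted p = 0.578), and the kinase SRC had 0.31 (SE 0.16, adjusted p = 0.604). Of 18 calcium signalling genes 0 were called by the same tools, with a median of 0.09 and 2 at an unadjusted p under 0.05. PPP3CB, a catalytic subunit of calcineurin, had 164 and 187 CPM in controls and 218 and 229 CPM after sevoflurane (0.35, SE 0.13, adjusted p = 0.372). PPP3R1, the regulatory subunit of calcineurin, had 0.22 (SE 0.13, adjusted p = 0.653). CAMK2A, the calcium/calmodulin kinase that binds GluN2B, was chosen after its values were seen and had -0.07 (SE 0.11, 95% interval -0.32 to 0.18), with 0.03 without control replicate 3. NRGN, the calmodulin-binding protein neurogranin, was also chosen after its values were seen and had -0.24 with all libraries. It had -0.62 without control replicate 2, which leaves control replicate 3 alone in its group, and 0.28 without control replicate 3.

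The kynurenine pathway makes both an antagonist of the co-agonist site, kynurenic acid, and an agonist, quinolinic acid. Of its 12 listed enzymes 8 were tested and 0 were called by edgeR, DESeq2 or limma-voom, with a median of 0.06. By edgeR 0 had an unadjusted p under 0.05. Over all tested genes edgeR called 0.599% and gave 9.92% an unadjusted p under 0.05. AADAT, which makes kynurenic acid, had 0.31 (SE 0.27, adjusted p = 0.784). AFMID had -0.73 (SE 0.67, adjusted p = 0.8), and KYAT1, listed under its older symbol CCBL1, had -0.13 (SE 0.17, adjusted p = 0.88). TDO2 and ACMSD had 0 reads in all libraries, KMO had 1 read in sevoflurane replicate 2, and IDO1 had 6 reads in that library and 0 in the others.

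Chromatin and transcription factors that act on the GRIN2B and GRIN2A genes, among them REST, whose complex silences GRIN2B as cortex matures, were the last list. Of 10 tested 0 were called by edgeR, DESeq2 or limma-voom, with a median of -0.09. By edgeR 0 had an unadjusted p under 0.05. Over all tested genes edgeR called 0.599% and gave 9.92% an unadjusted p under 0.05. REST, chosen after its values were seen, had 33.4 and 22.5 CPM in controls and 24.5 and 27.4 CPM after sevoflurane, inside the control range (-0.11, SE 0.22; 0.20 without control replicate 2). Its corepressor RCOR1 had -0.86 (SE 0.56, adjusted p = 0.69) from 15 to 22 reads per library. The polycomb genes EED and SUZ12 had -0.27 (SE 0.23, adjusted p = 0.781) and 0.16 (SE 0.17, adjusted p = 0.837).

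**Figure D5:**
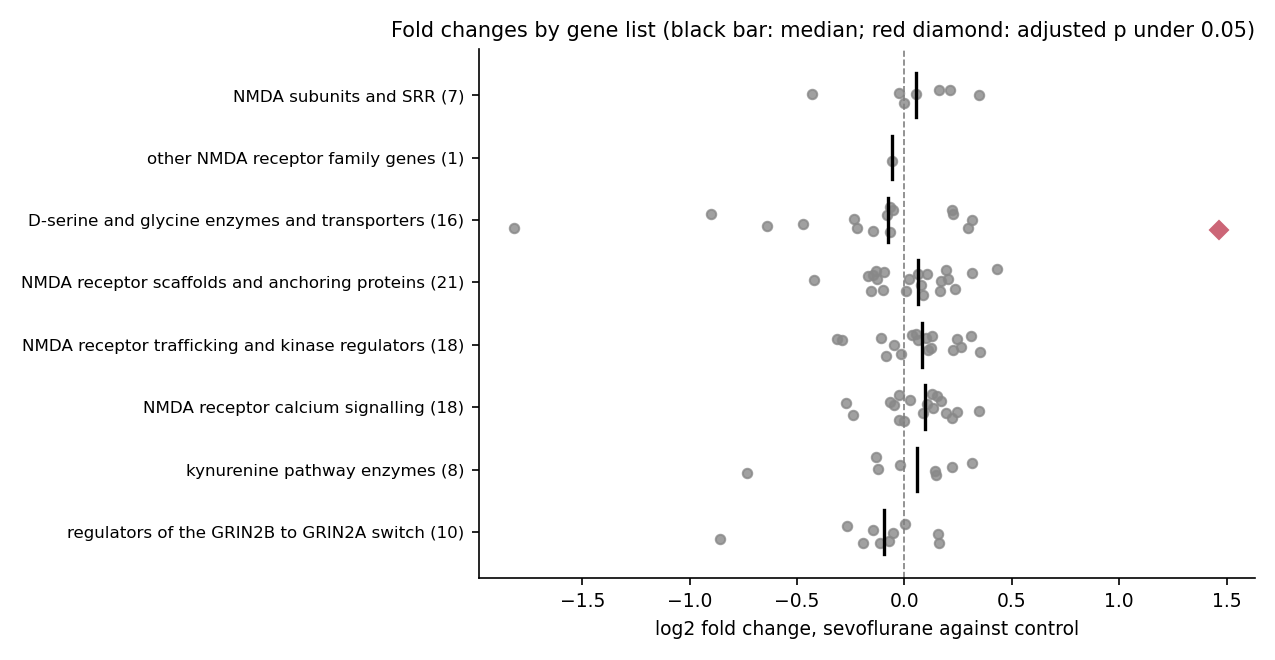
Log2 fold change of sevoflurane against control (horizontal axis) for each tested gene of the 8 gene sets, with the number of tested genes in brackets, a black bar at the median and a red diamond for a gene with adjusted p under 0.05. SDS at 1.47 is the one called gene, and the medians lie between -0.09 and 0.09.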

How the data were processed

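Prefrontal cortex RNA was sequenced in 4 libraries, 2 per group. The authors deposited raw counts of reads per gene; the aligner was HISAT2 (no version), per the submitters' processing notes. No source used here gives the counting program, build or strand setting, so overlapping genes are uncertain and no coordinates are given. Groups come from the agent label and columns from the titles.

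Counts were fitted in R 4.3.3 with edgeR 4.0.16 across all genes: filterByExpr with its defaults (minimum count 10, minimum total 15), TMM, group as the only term, quasi-likelihood F test, two-sided, Benjamini-Hochberg over 17693 genes. SE is the log2 fold change over the root of F. Alternatives used DESeq2 1.42.0, limma 3.58.1, other scaling and filters, the replicate number as a term, and each library left out. With 42% of simulated 2-fold and 79.4% of 4-fold changes called at this depth (100 and 97 genes tested of 17693), 2-fold changes can be missed. Profile distances used log2(CPM + 0.5).

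The 7 genes and all lists were chosen with earlier results of these data known. Of 186 list genes, 3 were found by gene number or older symbol. Named genes are the members, called list genes and the 3 smallest p of each list; others are marked, and some single-gene results are left out here. RefSeq names are from T2T-MMU8v2.0.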

Additional observations from a re-analysis of the deposited data

How the results depend on the processing

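Of the 7 genes, 0 were called under any of the 12 alternatives, with adjusted p-values from 0.17 to 0.9998. With a library left out, GRIN1 ran from -0.17 to 0.13, turning positive without control replicate 3 (0.13) and without sevoflurane replicate 3 (0.05), and GRIN3A from -0.20 to 0.18. GRIN3A turned positive with library size alone (0.013), with the stricter filter (mean of 5 CPM, 0.0014), without control replicate 2 (0.0026) and without sevoflurane replicate 3 (0.18). GRIN2A, GRIN2B, GRIN2C, GRIN2D and SRR kept their sign throughout. Among named list genes, DLG4 (-0.060 to 0.22) and REST (-0.36 to 0.20) changed sign without control replicate 2 and CAMK2A (-0.16 to 0.025), SHANK1 (-0.41 to 0.17), RELN (-0.45 to 0.95) and NRGN (-0.62 to 0.28) without control replicate 3, and these 3 last genes were called without control replicate 2; these alternatives for genes chosen after their values were seen were added after seeing the data.

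The serine and glycine list had 1 call, SDS, and 2 calls, SDS and SLC6A9, by DESeq2, by edgeR's likelihood ratio test, with the replicate block and without control replicate 2 (1 to 2 with a library left out). The scaffold list ranged from 0 to 2 and the calcium list from 0 to 1 with a library left out. Over all genes, 95 lower and 11 higher calls became 341 and 170 with the replicate block. Deviations of same-numbered libraries from their group means had a correlation of 0.01 over genes. The labels do not say whether the numbers pair libraries, and 1 correlation from 2 libraries per group cannot decide it. Calls were 218 and 57 by DESeq2, 304 and 137 by the likelihood ratio test, 74 and 8 with library size alone, 57 and 3 with no filter, 232 and 51 without control replicate 2, and 118 and 27 without control replicate 3. With a library left out, the lone sample of a group is assumed to vary like the others.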

Other observations

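Of the 57 tested genes in the scaffold, trafficking and calcium lists, 24 had their lowest level in control replicate 2. That is 42.1%, against 24.8% of all tested genes and 27.5% of those of mean at least 10 CPM. The sum of the 10 general neuron markers was also lowest in that library, at 7135 CPM. Among the 57 genes, the highest level was most often in sevoflurane replicate 2, with 19 genes (33.3%, against 22.2% and 20.8%). In control replicate 3, where GRIN1 was highest, 16 were highest (28.1%, against 31.0% and 33.6%). These shares are descriptions over genes that vary together. NRGN had 1226 CPM in control replicate 2 and 2283 CPM in control replicate 3, against 1571 and 1401 CPM in sevoflurane replicates 2 and 3. SHANK1 had 874 and 1315 CPM in controls and 1014 and 961 CPM after sevoflurane. RELN, the extracellular protein reelin, ran the other way in the controls, with 351 and 133 CPM, against 260 and 255 CPM after sevoflurane. In each of these 3 genes, chosen after their values were seen, both sevoflurane libraries lay between the controls, as they did for GRIN1.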
